A study of Mus musculus with 19 samples.

Results

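Regions of DNA that carried a 5-hydroxymethylcytosine (5-hmC) peak in every E14.5 and neonatal sample of mouse cardiomyocytes (CMCs), and in no sample of adult or pressure-overloaded CMCs, numbered 5252 on the autosomes. They were selected on the peak calls themselves. The base pairs shared by the 4 E14.5 and neonatal peak lists were merged into 28725 autosomal regions, called early common regions here, and the 5252 that no peak of the 2 adult and 2 TAC lists touched by 1 bp were called early-only. The other 23473 were called kept. Early-only regions thus made up 18.3% of the early common regions (95% exact binomial interval 17.8% to 18.7%, counting error only), and 397412 merged autosomal regions had a peak in any of the 8 lists.

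The lists came from hMeDIP sequencing, in which fragments of sonicated DNA are pulled down with an antibody against 5-hmC and sequenced. CMCs of male mice were isolated at E14.5, in neonatal pups of 1 to 2 days, in adults of 2 months and in adults 1 week after TAC. TAC (transverse aortic constriction) is surgery that narrows the aortic arch and overloads the left ventricle. There were 2 biological replicates at each point. The study's methods name the strain, C57BL/6J, for the mice given surgery. Per the study's methods, E14.5 and neonatal CMCs were digested from whole ventricles and freed of other cells by adhesion, whereas adult and TAC CMCs were perfused out of the left ventricle and sedimented, so age and isolation method cannot be told apart. The remaining 11 of the 19 samples of the series, input DNA and sh-control libraries, are not analysed here. The lists hold positions but no read counts, so the depth behind each list cannot be read from them and absence of a peak cannot be read as absence of 5-hmC. No expression values were used, and the labelled cell type could be checked only through peaks on marker genes.

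5-hmC is made from 5-methylcytosine by the TET enzymes, mostly at CpG dinucleotides. It can be an intermediate on the way to an unmethylated cytosine, but it also persists as a stable mark in cells that no longer divide, where gene bodies (GB) of transcribed genes and enhancers are its usual places. Late embryonic and newborn CMCs still proliferate, and CMCs leave the cell cycle within the first weeks of life.

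Sequences of 7 early-only regions are given to show what such regions look like, each from a gene that returns below. All are read 5′ to 3′ on the plus strand of GRCm38 (mm10), and capitals mark each CpG. The first 3 are whole regions of at most 300 bp and hold the most CpG among early-only regions of that size in their gene. They lie in intron 2 of Wwox (chr8:114444663-114444769), intron 3 of Cacna1c (chr6:118822894-118823163) and intron 1 of Sema5a (chr15:32261712-32261953), counted on the longest RefSeq transcript.
Wwox: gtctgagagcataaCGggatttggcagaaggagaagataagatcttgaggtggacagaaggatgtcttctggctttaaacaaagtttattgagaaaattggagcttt
Cacna1c: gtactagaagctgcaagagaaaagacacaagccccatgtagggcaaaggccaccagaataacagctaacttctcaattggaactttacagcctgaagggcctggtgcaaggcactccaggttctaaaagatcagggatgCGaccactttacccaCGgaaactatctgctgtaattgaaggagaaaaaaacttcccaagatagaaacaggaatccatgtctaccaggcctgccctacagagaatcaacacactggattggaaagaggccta
Sema5a: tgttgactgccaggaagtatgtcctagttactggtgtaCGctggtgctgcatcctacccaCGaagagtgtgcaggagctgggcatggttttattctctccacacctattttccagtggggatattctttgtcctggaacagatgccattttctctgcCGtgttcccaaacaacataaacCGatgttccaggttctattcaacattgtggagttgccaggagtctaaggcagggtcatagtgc
The other 4 are the central 300 bp of longer regions and were chosen after their values were seen. They come from intron 1 of Ryr2 (chr13:12089944-12090243), intron 4 of Fhl2 (chr1:43131377-43131676), the gene desert before Adgrl3 (chr5:80769709-80770008) and exon 28 of Myh7 (chr14:54979223-54979522).
Ryr2: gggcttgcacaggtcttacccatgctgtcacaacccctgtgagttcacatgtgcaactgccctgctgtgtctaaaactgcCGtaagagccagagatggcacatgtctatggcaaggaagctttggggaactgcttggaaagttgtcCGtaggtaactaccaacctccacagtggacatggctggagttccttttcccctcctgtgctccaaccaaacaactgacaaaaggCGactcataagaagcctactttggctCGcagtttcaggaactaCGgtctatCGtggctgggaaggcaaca
Fhl2: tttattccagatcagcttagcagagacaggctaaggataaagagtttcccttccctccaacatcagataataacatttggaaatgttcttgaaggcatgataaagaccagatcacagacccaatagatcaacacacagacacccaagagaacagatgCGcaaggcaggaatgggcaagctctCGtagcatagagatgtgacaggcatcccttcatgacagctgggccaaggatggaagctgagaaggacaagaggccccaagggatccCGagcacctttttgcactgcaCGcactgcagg
Adgrl3: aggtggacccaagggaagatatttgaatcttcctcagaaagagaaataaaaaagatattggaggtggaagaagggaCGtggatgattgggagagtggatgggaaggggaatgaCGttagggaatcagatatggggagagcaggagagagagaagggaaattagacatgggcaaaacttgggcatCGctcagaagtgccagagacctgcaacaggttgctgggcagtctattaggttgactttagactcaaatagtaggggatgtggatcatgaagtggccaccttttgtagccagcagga
Myh7: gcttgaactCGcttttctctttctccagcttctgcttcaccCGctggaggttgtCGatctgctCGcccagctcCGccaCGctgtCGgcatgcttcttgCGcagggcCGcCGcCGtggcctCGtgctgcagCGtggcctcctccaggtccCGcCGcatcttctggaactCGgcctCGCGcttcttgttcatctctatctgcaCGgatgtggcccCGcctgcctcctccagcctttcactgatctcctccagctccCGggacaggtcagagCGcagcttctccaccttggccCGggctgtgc
The printed intronic and intergenic stretches held 1 to 6 CpG each. The Myh7 exon stands apart from them, with 23 CpG in 300 bp.

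How far the absence of later peaks exceeded the disagreement among early lists was gauged from regions shared by 3 early lists. These were the other replicate of the left-out stage and both replicates of the other early stage. The share missed therefore mixes disagreement between replicates with difference between E14.5 and neonatal lists. The left-out early list missed 33.9% of such regions for E14.5 replicate 1, 27.4% for E14.5 replicate 2, 35.1% for neonatal replicate 1 and 17.2% for neonatal replicate 2. Both adult lists and TAC replicate 1 missed 47.7% to 57.5% of the same regions, and TAC replicate 2 missed 75.5% to 76.1%. Each later list therefore missed more regions than any early list did, but an early list already missed up to 35.1%. Leaving a list out of the selection raised the count of early-only regions to 9763 without E14.5 replicate 1 and to 10208 without neonatal replicate 1. The rule is looser with 1 list fewer, so the total could hardly fall and its rise shows little.

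Among the 28725 early common regions, adult replicate 1 overlapped 48.2%, adult replicate 2 53.7%, TAC replicate 1 50.3% and TAC replicate 2 25.4%. The lists differ in size, with 132610 to 153637 peaks in the early lists and 104215 to 121214 in the later ones. After all lists were drawn down at random to the same number of peaks, 20% of the early common regions were early-only, against 18.3% with the full lists. Random thinning takes peaks from later lists too, so this share could hardly fall. The setting therefore cannot show what part list size played in the 18.3%. Early-only thus meant the far end of a graded series, since 7145 early common regions were overlapped by 1 later list, 7645 by 2, 6145 by 3 and 2538 by all 4. Of the kept regions, 3199 had no adult peak but a TAC peak, and of these 451 had a peak in both TAC lists.

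The edge of the definition was wide. Of the 5252 early-only regions, 624 (11.9%) had a later peak within 100 bp, 1672 (31.8%) within 500 bp and 2270 (43.2%) within 1 kb. On the other side, 492 kept regions were overlapped by at most 50 bp. The median gap from an early-only region to the nearest later peak was 1364 bp, and the middle of the distribution ran from 281 bp to 5028 bp (quartiles). No later peak lay within 5 kb of 1320 early-only regions (25.1%), and none within 20 kb of 368 (7.01%). These 1320 and 368 regions are those whose status depends least on where a later peak was drawn.

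TAC replicate 2 stood apart around these regions. Its peaks lay within 500 bp of 970 early-only regions (18.5%), whereas adult replicate 1 had peaks so near to 353, adult replicate 2 to 488 and TAC replicate 1 to 390. The nearest later peak belonged to TAC replicate 2 in 40.8% of early-only regions. From 500 bp to 1 kb before and after the centres of early-only regions it covered 8.07% and 7.59% of the bases, and 3.96% to 4.19% in the next 500 bp. The same list was also lower at the centres of kept regions (15.9% and 16.3%) than beside them (19% and 18.6%), so its peaks sat beside those of the other lists at both kinds of region. Without TAC replicate 2, a looser rule that can only add regions, there were 5841 early-only regions and 20.3% of the early common regions had no later peak. What part this displacement played in the early-only status of single regions was not tested.

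**Figure D1:**
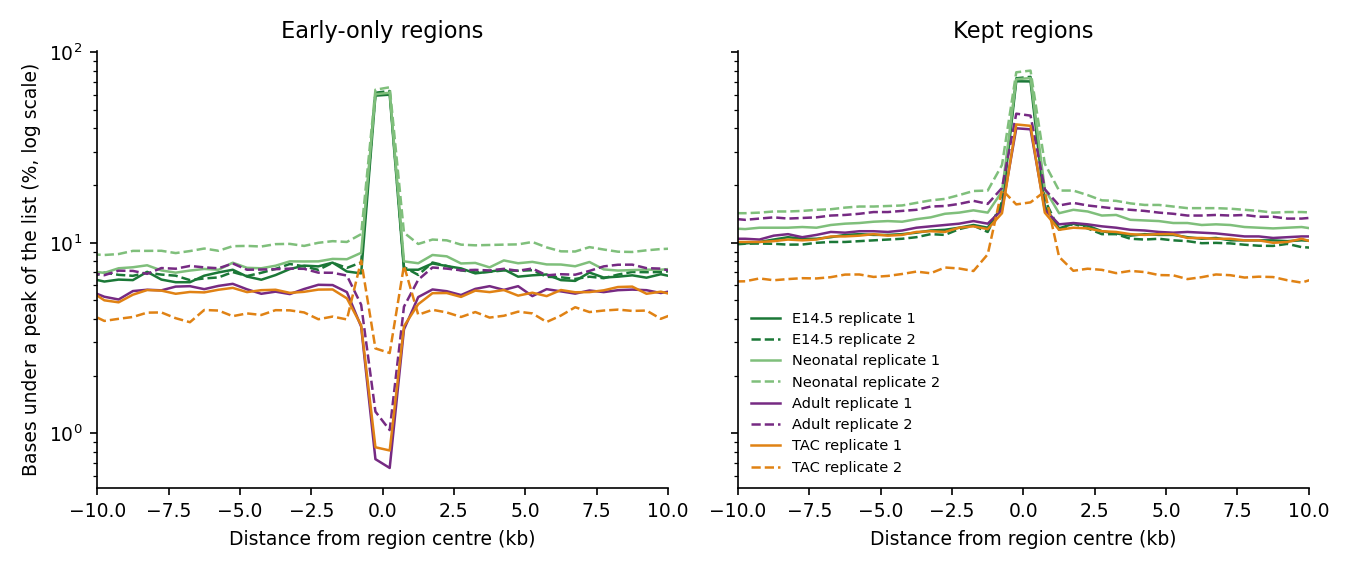
Share of bases under a peak of each list (log axis, %) in 500 bp steps from 10 kb before to 10 kb after the centres of the 5252 early-only (left) and 23473 kept regions (right), by list. At early-only centres the early lists cover 59.2% to 65.5% and the later ones 0.658% to 2.79% by construction. Of the later lists only TAC replicate 2 has shoulders beside the early-only centres.

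Early-only regions lay outside genes more often than kept regions and held fewer CpG. By the class of their centre, 2701 (51.4%, exact interval 50.1% to 52.8%) were intergenic, against 35.8% of kept regions and 56.9% of autosomal sequence. Introns held 2241 (42.7%, kept 55.2%) and coding exons or noncoding-RNA exons 126 (2.40%, kept 4.64%). Promoters and gene ends held few, with 87 (1.66%) in the TSS class, from 1 kb before to 100 bp after a transcription start, and 59 (1.12%) in the TTS class around transcript ends. The difference in intergenic share was 15.6 percentage points (95% normal interval 14.2 to 17.1, counting error only). It had the same direction on 19 of 19 autosomes, and it was 13.1 to 16.4 points with any 1 list left out.

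CpG density was 1.23 per 100 bp in early-only regions, 1.64 in kept regions and 0.851 over the autosomes. It was again lower on 19 of 19 autosomes. No CpG at all was found in 12.5% of early-only and 5.28% of kept regions. The difference was seen within a class too: intergenic early-only regions held 0.970 CpG per 100 bp and intergenic kept regions 1.21, while intronic ones held 1.38 and 1.69. Soft-masked sequence, which stands for repeats and simple sequence, made up 36.9% of early-only and 28.6% of kept bases. Outside it, the density was 1.67 per 100 bp in early-only regions and again lower than in kept regions (difference -0.361).

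Composition followed the number of later lists step by step. From 0 to 4 overlapping later lists, the intergenic share was 51.4%, 43.5%, 36.5%, 29.1% and 27.9%, and CpG density 1.23, 1.42, 1.60, 1.75 and 1.83 per 100 bp. Early-only regions were one end of this series. Regions seen in both adult lists and in no early list, 9406 in all and selected on the same calls in the opposite direction, were 21.2% intergenic with 1.75 CpG per 100 bp. Their soft-masked share was 15.9%, so they differed from early-only regions more than kept regions did.

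**Figure D2:**
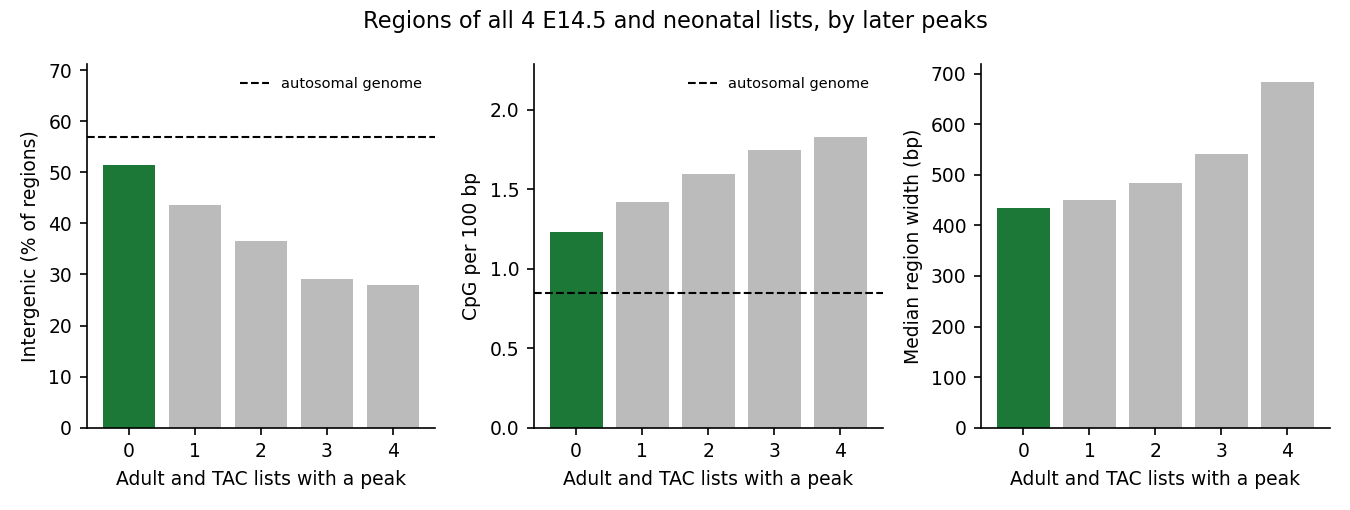
Intergenic share (%), CpG per 100 bp and median width (bp) of the early common regions with a peak in 0 (early-only, green) to 4 of the adult and TAC lists (grey). Bars start at 0, and dashed lines give the autosomal genome (56.9% intergenic, 0.851 CpG per 100 bp). The green bar is at one end of a steady series in each panel.

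They were also narrower than kept regions. Median width was 435 bp (5th to 95th percentile 120 to 618 bp) against 494 bp for kept regions, and the widest had 1935 bp against 7334 bp. The peaks behind them were narrower than those at kept regions in every early list, with means of 697 bp, 733 bp, 753 bp and 876 bp in E14.5 replicates 1 and 2 and neonatal replicates 1 and 2, where peaks at kept regions averaged 927 bp, 972 bp, 1036 bp and 1275 bp. All autosomal peaks of these lists averaged 676 bp, 686 bp, 712 bp and 775 bp, so peaks at early-only regions were wider than the average peak. The median place of a peak in its list was 37.4% to 42.3% at early-only regions and 15.8% to 19% at kept regions. These ranges of the early lists did not meet. What the order of a list stands for, and its part in the differences in class, CpG and width, was not tested. A narrow region is less likely to be touched by a later peak, so width is tied to the selection. Among regions of 300 to 500 bp, a comparison added after the data were seen, 55.5% of early-only and 41.3% of kept regions were intergenic, with 1.08 and 1.44 CpG per 100 bp.

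Early-only regions sat in DNA with fewer peaks of every list than kept regions did. From 5 to 20 kb around them, cover of bases was 6.39% and 6.53% at E14.5, 7.16% and 8.73% after birth, 5.43% and 7.02% in adults and 5.29% and 4.07% under TAC. The same flanks of kept regions were covered to 9.65% to 14.3% by the early lists and to 6.34% to 13.2% by the later lists. Relative to each list's cover of all autosomes, early-only flanks were enriched 1.66- to 1.79-fold in early lists and 1.5- to 1.74-fold in later ones. Peaks of all ages were thus denser near early-only regions than on average, and less dense than near kept ones.

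An early-only region had another as its nearest neighbour somewhat more often than a kept region did. The nearest early common neighbour was early-only for 1271 of 5252 early-only regions (24.2%), but for 16.2% of kept regions, where 18.3% of all early common regions were early-only. Among those with a neighbour within 10 kb, the shares were 18.2% of early-only and 12.2% of kept regions, where 12.8% of all such regions were early-only. The median distance to the nearest early common region was 23293 bp from an early-only and 11795 bp from a kept region. Another early-only region lay within 10 kb of 367 (6.99%) and within 100 kb of 2273 (43.3%). By chromosome, early-only regions made up 15.7% (chromosomes 5 and 17) to 21.3% (chromosome 3) of the early common regions.

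Counted by gene, 1770 of 20021 autosomal protein-coding genes (8.84%) held the centre of an early-only region. Most of these, 1393 genes, held 1, another 260 held 2, 117 held 3 or more, and 17 held at least 5. Protein-coding genes held 44.0% of early-only and 60.0% of kept regions. Of the 287 genes with 10 or more early common regions, 76 held no early-only region, and only 5 of 1782 genes with at least 3 had none but early-only ones. Among the 1770 genes, 773 (43.7%) had under 50% of their early common regions early-only, and 881 (49.8%) had only 1 or 2 early common regions in all.

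Counts rose with gene length. An early-only region was present in 1.77% of genes under 20 kb and in 72.1% of genes over 500 kb, while their density stayed at 1.72 to 2.88 per Mb from the shortest to the longest class. What changed with length was the share of early common regions that were early-only, which was 11.7% in genes under 20 kb, 12.6% to 15% in those from 20 to 500 kb and 21.5% in those over 500 kb. The longest genes also had the lowest density of early common regions, 8.02 per Mb against 16.9 to 21.8 in the other classes.

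The 14 genes with the most early-only regions were Wwox, Cacna1c, Ryr2, Sema5a, Zfp536, Kalrn, Foxp1, Map2k6, Fhl2, Caln1, Rora, Tshz2, Grip1 and Rbm20. They are described by the known role of their products, which is a way of ordering them and was not tested as a theme. Their regions were almost all intronic.

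Several encode proteins of the CMC calcium cycle and sarcomere. Cacna1c, the pore-forming subunit of the L-type calcium channel (chr6:118587240-119196409), held 9 early-only of 40 early common regions. Its peaks numbered 125 and 94 at E14.5, 153 and 136 after birth, 155 and 159 in adults and 148 and 105 under TAC. The gene as a whole did not have fewer peaks later, and it held 18 adult-only regions, so it had early-only and adult-only sites side by side. One of its early-only regions lay in exon 46 of 47 and 5 in intron 3. The last 3, in intron 1, are shared with the overlapping gene Dcp1b and cannot be assigned to either. A pair of the intron 3 regions, at chr6:118821679-118821778 and chr6:118822894-118823163, came from the same neonatal peaks of 1485 bp and 7241 bp. At the 9 early-only sites of Cacna1c the nearest later peak was 17 bp to 1989 bp away. Those within 1 kb were at 17, 109, 142, 234, 569 and 604 bp.

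Ryr2, the calcium release channel of the sarcoplasmic reticulum (chr13:11553103-12106945), held 7 early-only of 17 early common regions, 6 of them in intron 1 and 1 in intron 2. Peaks in Ryr2 numbered 49 and 43 at E14.5, 109 and 107 after birth, 68 and 85 in adults and 80 and 57 under TAC. The later counts lay between the E14.5 and the neonatal ones. At the 7 early-only sites the nearest later peak was 112 bp to 5403 bp away. The region printed above, with 14 CpG over its whole 827 bp, had its nearest later peak at 739 bp, in TAC replicate 2.

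Fhl2, a LIM domain protein of the sarcomere and nucleus that restrains hypertrophic signalling (chr1:43123071-43196761), had few later peaks over its whole span. Its peaks numbered 17 and 13 at E14.5, 27 and 20 after birth, 2 and 3 in adults and 5 and 5 under TAC. Every later list was below every early one, as in 4.07% of all genes with a peak, 5.12% of those from 50 to 100 kb, 23.3% of those from 200 to 500 kb and 40.6% of longer ones. Among genes with an early-only region the share was 21.1%. Since every early list is larger than every later one and the genes were picked on the same calls, nothing is read from such an order in the genes below. Of its 7 early common regions 5 were early-only, 4 of them intronic and 1 in the TSS class 571 bp from a transcription start, and their nearest later peaks were 129 bp to 2876 bp away. The widest, 1088 bp in intron 4, carried 16 CpG, and the nearest adult peak was 5238 bp away.

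**Figure D3:**
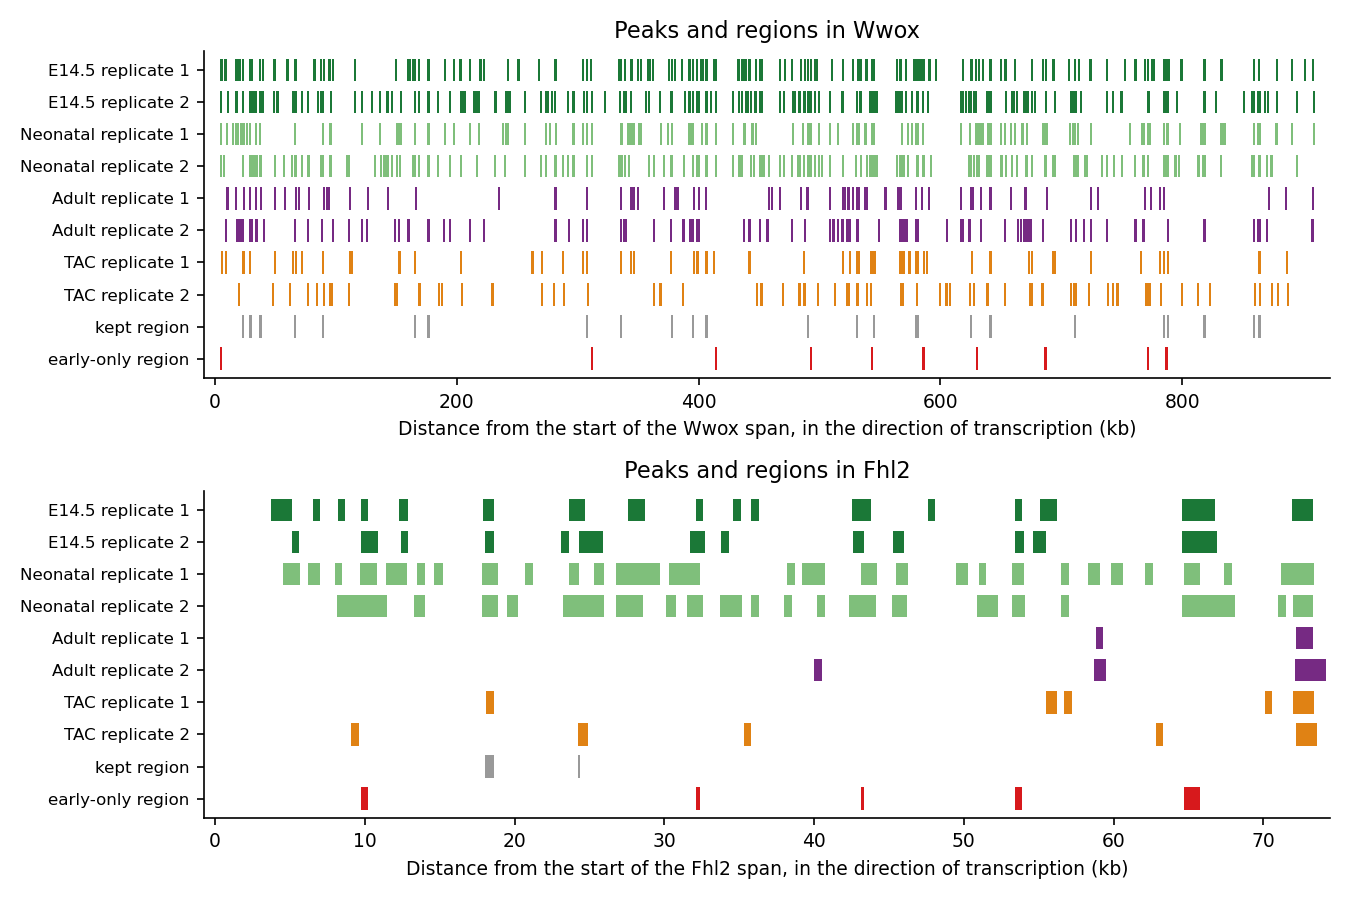
Peaks of each list (rows) and the kept and early-only regions (bottom rows) along Wwox (span 913 kb) and Fhl2 (73.7 kb), by distance in kb from the start of the gene span in the direction of transcription. In Fhl2 the early rows are filled and the later rows hold 2 to 5 peaks, while in Wwox later peaks remain throughout. Marks under 1/500 of the span are widened to be visible.

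Rbm20, the splicing factor that sets titin isoforms (chr19:53677306-53867080), held 5 early-only of 17 early common regions, all in intron 1, with 9 to 16 CpG each. Peaks in Rbm20 numbered 47 and 39 at E14.5, 43 and 45 after birth, 29 and 39 in adults and 28 and 33 under TAC. The ranges of early and later lists met at 39.

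Wwox, a WW domain oxidoreductase known as a tumour suppressor at a fragile site (chr8:114439652-115352712), led the count with 10 early-only of 35 early common regions. Of these 9 lay in intron 8 of its longest transcript and 1 in intron 2. Its peaks numbered 133 and 147 at E14.5, 115 and 135 after birth, 69 and 85 in adults and 57 and 66 under TAC, so every later list was below every early one. Counts of early-only regions in Wwox rose to 19 without E14.5 replicate 1 and to 23 without neonatal replicate 1, as the total did under these looser rules. Its density was 1.10 per 100 kb, against 6.79 in Fhl2. At the 10 early-only sites of Wwox the nearest later peak was 74 bp to 2877 bp away. Those within 1 kb were at 74, 77, 95, 145, 720 and 906 bp, so many sites lay at the edge of the definition.

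Several others are better known from neurons. Sema5a, a semaphorin that guides axons (chr15:32244813-32696341), held 6 early-only of only 7 early common regions. It had 27 and 25 peaks at E14.5 and 30 and 25 after birth, but 10, 14, 12 and 17 in the later lists. One of its early-only regions lay in exon 15 of 23. Caln1, a neuronal calcium-binding protein, held 5 of 13, with 33, 36, 27 and 30 early peaks against 9, 12, 7 and 21 later ones. Grip1, a scaffold of glutamate receptors, held 5 of 17, with 60, 72, 42 and 48 early and 20, 28, 24 and 32 later peaks. Kalrn, a nucleotide exchange factor of dendritic spines, held 6 of 19, with 79 to 84 early and 51 to 67 later peaks. In Sema5a, Caln1 and Grip1 the highest later count belonged to TAC replicate 2.

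The remaining genes of the 14 are regulators. Foxp1, a forkhead factor needed for heart development, held 6 early-only of 28 early common regions, with 93 to 106 early and 64 to 103 later peaks. Rora, a nuclear receptor of the circadian clock, held 5 of 14 and as many as 14 adult-only regions. Its peaks numbered 61 and 67 at E14.5, 68 and 85 after birth, 97 and 111 in adults and 94 and 76 under TAC, so the gene had more peaks in adults while 5 of its sites had none. Zfp536, a zinc finger repressor of neuronal genes, held 6 of 15, and Tshz2, a teashirt zinc finger protein, 5 of 16. In Tshz2 peaks numbered 49 to 99 in the early and 27 to 39 in the later lists, and its count of early-only regions rose to 13 without neonatal replicate 1. Without that list Foxp1 held 13, and the rule is then looser for both genes. Map2k6, the kinase that activates p38, held 5 of only 6, with 19 to 25 early and 11 to 21 later peaks, which overlapped.

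**Figure D4:**
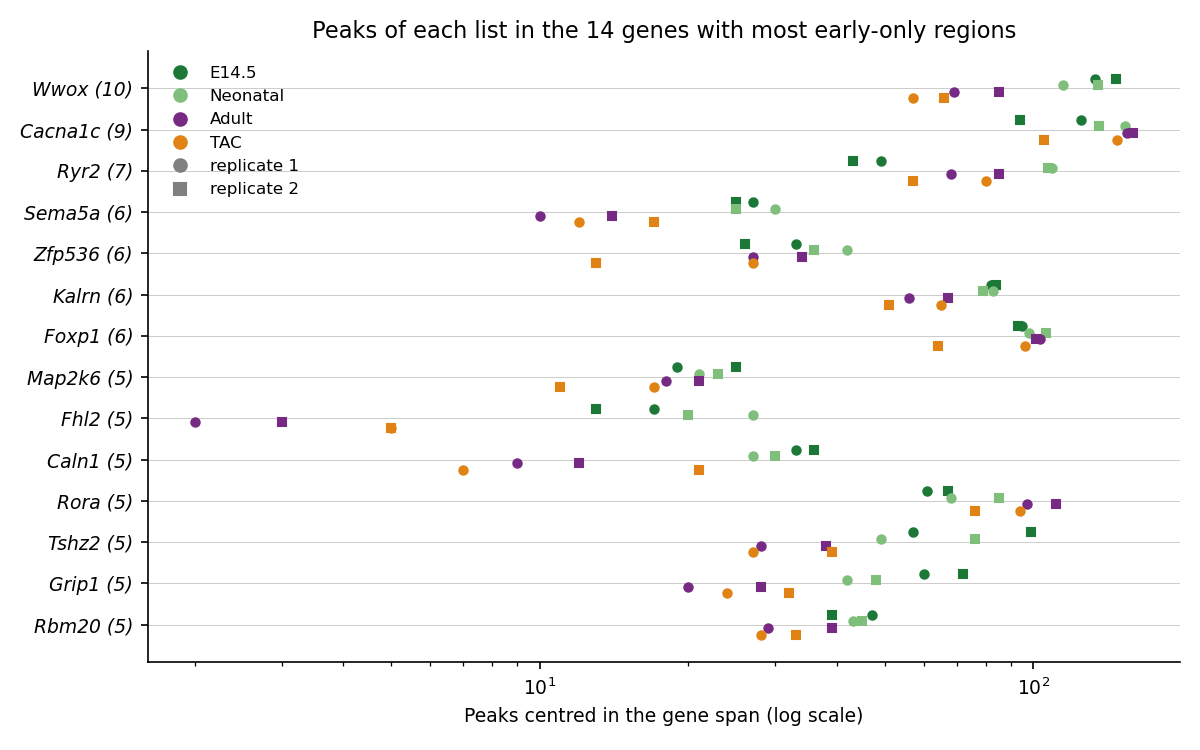
Number of peaks of each list centred in the span of the 14 genes with most early-only regions (early-only count in brackets), on a log axis, by group (colour) and replicate (symbol). The genes were picked on the same calls and every early list is larger than every later one, so later points to the left, as in Fhl2, Sema5a, Caln1, Grip1, Kalrn, Tshz2 and Wwox, are a description only. In Cacna1c, Ryr2, Foxp1 and Rora they mix.

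Density picked out shorter genes. The 8 genes of at least 20 kb with 3 or more early-only regions and most per 100 kb were Pptc7 (7.52 per 100 kb), Fhl2 (6.79), Dcp1b (6.47), Bmp7 (5.53), Jph2 (4.86), Kcng2 (4.30), Vtcn1 (4.20) and Kirrel (4.17). Jph2, junctophilin 2, which holds the T-tubule against the sarcoplasmic reticulum, held 3 of 11 early common regions. Its peaks numbered 16 and 18 at E14.5, 16 and 15 after birth, 12 and 12 in adults and 6 and 5 under TAC. Without E14.5 replicate 2, 1 early-only region was left in Jph2. Bmp7, a ligand of the BMP pathway, held 4 of 11, with 20, 22, 23 and 25 early and 15, 15, 18 and 10 later peaks. Vtcn1, an immune checkpoint ligand of the B7 family, held 3 of 3, yet 2 to 3 later peaks remained in the gene. Pptc7, a mitochondrial phosphatase, held 3 of 5, with 10 or 11 early and 8 to 11 later peaks, and Kirrel, an adhesion protein, 4 of 9.

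Of 32 contractile and cardiomyocyte genes, 15 (46.9%) held at least 1, where 8.84% of all genes did. Their median span was 19.6 kb, and 1.77% of all genes under 20 kb and 7.44% of those from 20 to 50 kb held one. They were rich in early common regions altogether, with 53.5 per Mb against 17.6 over all genes, and 22.4% of these were early-only against 14.0%. Without Cacna1c and Ryr2, both over 500 kb, it was 16 of 86 (18.6%), and in all genes over 500 kb 21.5%. Beside Cacna1c and Ryr2, the list's members with early-only regions included Ldb3, Myh6 and Ttn with 2 each, and Actn2, Atp2a2, Csrp3, Gja1, Myh7, Myl2, Myl4, Tnnt2 and Xirp1 with 1 each.

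The myosin heavy chain genes lie side by side on chromosome 14. Myh7, the slow isoform of the fetal mouse ventricle (chr14:54970684-54994626), had 8 and 7 peaks at E14.5, 8 and 6 after birth, 1 and 4 in adults and 5 and 3 under TAC. Myh6, the fast isoform of the adult (chr14:54941921-54966607), had 8 and 8 at E14.5, 7 and 8 after birth, 1 and 2 in adults and 3 and 3 under TAC. Later counts were below early ones in both genes. That order was seen in 2.19% of genes from 20 to 50 kb with a peak. Among genes of any span with an early-only region, as both are, it was seen in 21.1%. Myh7 held 1 early-only of 4 early common regions, in exon 28 of 41, with 30 CpG over 525 bp and the nearest later peak 345 bp away in TAC replicate 2. Myh6 held 2 of 6, in introns 14 and 21. Coding exons of both genes are similar in sequence, so placement of reads between them is uncertain, and its part was not tested. The single early-only region of Myh7 became 3 without E14.5 replicate 2 and 2 without neonatal replicate 2 or TAC replicate 1.

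Signalling and transcription factor genes varied. In the TGF-beta and BMP pathway, 11 of 33 genes (33.3%, median span 69.0 kb) held early-only regions. Among its ligands these were Bmp7 with 4, and Bmp6 and Tgfb2 with 2 each. Its receptors Bmpr1b with 2 and Acvr2a, Bmpr1a and Bmpr2 with 1 each followed, and the signal transducers Smad3 with 2 and Smad2 and the inhibitory Smad6 with 1 each. Ltbp1, which stores latent TGF-beta in the matrix, held 3. In the Wnt pathway 11 of 48 genes (22.9%, median span 39.8 kb) did, led by the receptor Ror2 with 3, and 10% of their early common regions were early-only against 14.0% over all genes. Of all genes 8.84% held one, 7.44% of those from 20 to 50 kb and 15.3% of those from 50 to 100 kb. Of 36 cardiac transcription factors 6 (16.7%) did, and 8.07% of their early common regions were early-only, below the 14.0% of all genes. They were Foxp1 with 6, Gata6 and Tead1 with 2 each, and Meis2, Nfatc1 and Prdm16 with 1 each. Prdm16 kept 32 of its 33 early common regions. Gata4, Mef2a and Mef2c held early common regions but no early-only one, although Mef2a gained 1 or 2 with E14.5 replicates 1 or 2, neonatal replicate 1 or adult replicate 1 left out.

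Genes of axon guidance and neural adhesion had the highest share of the 12 lists, 24 of 47 (51.1%). Their median span was 383 kb, and 47.8% of all genes from 200 to 500 kb held an early-only region, so the share was near that of long genes in general. Receptors of guidance cues on the list included Robo1 with 4, Epha3 with 2 and Dcc, Ephb1, Robo2 and Unc5b with 1 each, and its adhesion proteins Lsamp and Cdh13 with 4 each and Csmd1, Nrxn3 and Ptprd with 3 each. The ligands Efna5 with 4 and Sema6d with 3 followed Sema5a. Peaks over Robo1, the receptor of Slit ligands, numbered 34 and 40 at E14.5 and 23 and 31 after birth, but 11, 11, 6 and 12 in the later lists. Over Lsamp, a membrane protein of limbic neurons, they were 44, 54, 41 and 49 early and 11, 10, 14 and 34 later. Among list members with at least 3 early-only regions, TAC replicate 2 held the highest later count in all except Cdh13 and Efna5, for example 27 against 9 to 12 in Csmd1 and 26 against 6 to 12 in Nrxn3.

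The other lists were small in numbers. Early-only regions were found in 5 of 28 genes of fatty acid oxidation and adult metabolism, 4 of 20 endothelial genes, 4 of 20 fibroblast and matrix genes, 3 of 22 imprinted growth genes (of 24 listed) and 2 of 38 cell cycle genes (E2f2 and E2f3), where 8.84% of all genes did. Of their early common regions 15.1%, 15.8%, 31.2%, 6.38% and 10% were early-only in the same order, against 14.0% over all genes. None of 39 Hox genes, of median span 3.32 kb, held any early common region, where 5999 of all 20021 genes did. The 10916 genes under 20 kb held 1686 early common regions between them. Of 15 enzymes of DNA methylation and hydroxymethylation, 2 (13.3%) held early-only regions. These made up 3 of their 23 early common regions (13.0%), near the 14.0% over all genes. Tet1 held 2 of 3 and Tet2 1 of 3 early common regions as early-only, whereas Tet3 kept all 10. In Tet1 peaks numbered 7, 7, 8 and 9 in the early and 10, 11, 9 and 8 in the later lists, so the gene had no fewer peaks later. The Tet1 regions had their nearest later peaks 52 bp (TAC replicate 2) and 2518 bp away. The Tet2 region had its nearest later peak 174 bp away and was absent without E14.5 replicate 1.

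**Figure D5:**
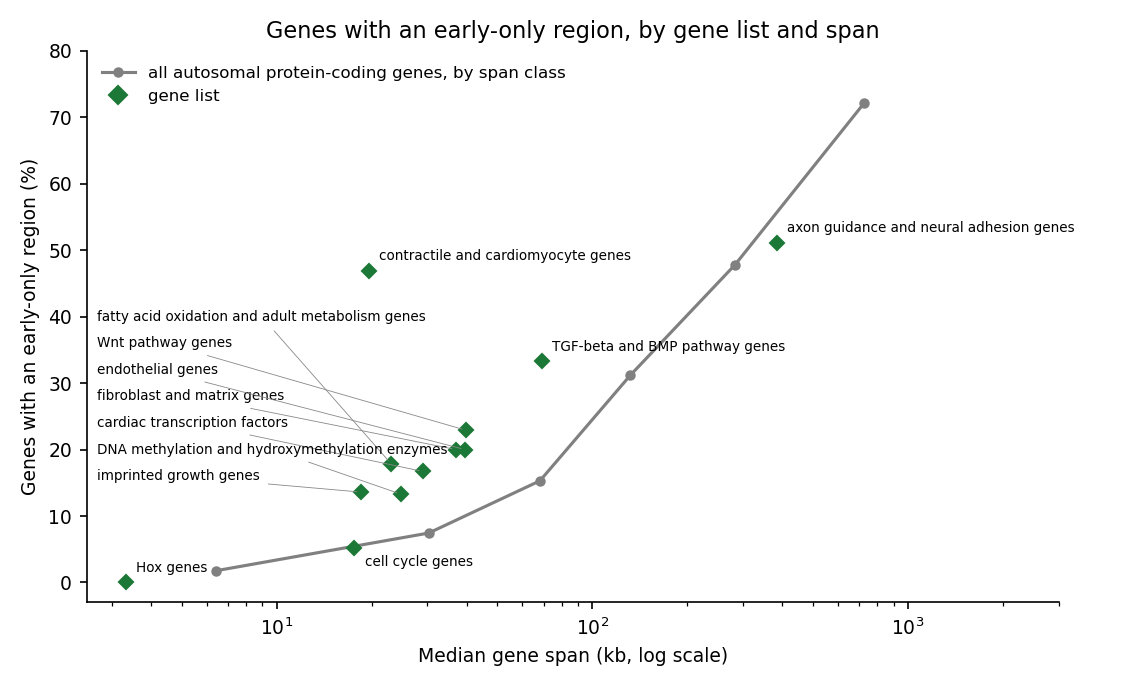
Share of genes with an early-only region (%) against the median gene span (kb, log axis) for 12 gene lists (green) and for all autosomal protein-coding genes in 6 span classes (grey line). The contractile and cardiomyocyte genes, at 46.9% and 19.6 kb, lie farthest above the line, and the axon guidance and neural adhesion genes, at 51.1% and 383 kb, lie close to it.

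Peaks on marker genes bore on the labelled cell type. Of the CMC markers Ryr2, Myh6, Ttn and Tnnt2 held early-only regions (12 in all of 40 early common regions) and Actc1 held no early common region. None of the 5 fibroblast markers (Vim, Col1a2, Tcf21, Pdgfra and Dcn) held an early common region. Vim had 0, 0, 1 and 0 early and 1, 1, 1 and 0 later peaks, Col1a2 1 in neonatal replicate 1 and 1 in TAC replicate 2, and Tcf21 none in any list. Summed over the 5, early lists had 2, 4, 4 and 5 peaks and later lists 1, 4, 1 and 3. The wider fibroblast and matrix list did hold early common regions, 16 in 7 of its 20 genes, and 5 of these (31.2%) were early-only, which is the highest share of the 12 lists. They lay in Col6a3 with 2 of 2, Fbn1 with 1 of 1, Ddr2 with 1 of 2 and Col5a1 with 1 of 6. All 5 endothelial markers held early common regions, 17 in total, of which Flt1 held 2 early-only and Pecam1 1. Peaks on Flt1, a VEGF receptor, numbered 29, 24, 30 and 33 in the early and 16, 25, 17 and 15 in the later lists. Pecam1, which encodes CD31, had 13, 11, 12 and 15 against 13, 15, 9 and 9. Summed over the 5 endothelial markers, early lists had 60, 52, 53 and 69 peaks and later lists 46, 51, 33 and 38, and over the 5 CMC markers, early lists had 113, 83, 193 and 177 peaks and later lists 139, 154, 147 and 93. What part other cell types had in early-only regions was not tested.

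Intergenic early-only regions lay far from the transcription starts of protein-coding genes. The nearest such start was at a median of 77.9 kb, against 56.9 kb for intergenic kept regions. More than 500 kb from one lay 10.2% of early-only but 4.48% of kept regions. Distances were taken to protein-coding genes only, so a noncoding transcript can lie nearer. On a GENCODE M21 transcript lay 419 (15.5%) of the intergenic early-only regions, and a larger share of the intergenic kept regions. The intergenic early-only regions were nearest to 1968 protein-coding genes, of which 1479 had a single region. Exactly 8 genes had 6 each, namely Adgrl3, Crim1, Rtl1, Nr2f2, Sox2, Epha4, Btg1 and Adgrl2, and none had more. Such nearness is a statement of position and says nothing of which gene a region acts on.

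Around Adgrl3, a latrophilin of synaptic adhesion, the 6 regions spread over 2094 kb of chromosome 5, 251 to 1097 kb from its transcription starts, beside 1 intergenic kept region. In that stretch peaks numbered 46 and 52 at E14.5 and 41 and 46 after birth, but 7, 8, 5 and 24 in the later lists. The region printed above had its nearest later peak 88196 bp away. Near Nr2f2, the receptor COUP-TFII that marks atrial identity, 910 kb held 39, 51, 30 and 41 early and 15, 20, 20 and 29 later peaks. Sox2, a pluripotency and neural factor (chr3:34649995-34652461), had 39, 60, 40 and 53 early and 7, 26, 8 and 29 later peaks in 757 kb. Crim1, a transmembrane BMP-binding protein, had 28, 36, 29 and 30 early and 4, 5, 8 and 20 later peaks in 1178 kb before it. Rtl1, an imprinted retrotransposon-derived gene needed in placenta and muscle, had 22, 28, 21 and 26 against 8, 9, 10 and 13 in 346 kb. These stretches are bounded by regions selected for early peaks without later ones, so lower later counts follow from the choice. In each of the 5 the highest later count was that of TAC replicate 2.

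The other 3 stretches kept more later peaks. Near Epha4, an ephrin receptor, 1095 kb held 61, 79, 59 and 75 early and 42, 43, 40 and 41 later peaks. Near Btg1, an inhibitor of proliferation, the counts were 31, 35, 37 and 42 against 22, 34, 17 and 23 and overlapped. These stretches too were bounded by regions selected for early peaks without later ones, so overlap of counts or its absence is a description only. Adgrl2, another latrophilin, had 27 intergenic kept regions beside its 6 early-only ones and overlapping counts of 104 to 147 early and 89 to 114 later peaks.

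Runs of consecutive early common regions that were all early-only reached 8. Single early-only regions made up 3084 runs, and pairs another 662. The longest run covered 2598 kb of chromosome 3 with Ndst3 and Ndst4, heparan sulfate sulfotransferases, and Ugt8a, an enzyme of myelin lipids. That stretch held 46, 67, 54 and 53 early and 9, 11, 13 and 34 later peaks. Runs of 7 lay on chromosome 11 nearest to Bcl11a, Vrk2, Fancl and Ccdc85a, with 53, 65, 59 and 56 early and 16, 19, 18 and 55 later peaks, and in the zinc finger gene cluster of chromosome 13 with Zfp58, Zfp708 and Gm7762, with 42, 49, 40 and 46 against 19, 27, 27 and 46. Zinc finger genes of such clusters are close copies of one another, which makes read placement uncertain there. A pair of the 5 runs of 6 lay at Tprg, P3h2 and Trp63 (802 kb, 34 to 37 early and 8 to 21 later peaks) and at Epha3 and Epha6 (2646 kb, 40 to 58 early and 11 to 44 later peaks), both on chromosome 16. TAC replicate 2 reached the range of the early lists in both runs of 7 and in the run at Epha3 and Epha6. Both adult lists and TAC replicate 1 stayed below it in all 5 runs described. Runs are stretches picked for early regions without later peaks, and every early list is larger, so lower later counts follow from the choice. Their order is a description only.

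The widest early-only regions were chosen for size and were near later peaks. The widest, 1935 bp with 32 CpG, lay in an intron of Ankrd23, a muscle ankyrin repeat protein, at chr1:36533968-36535902, with a later peak 124 bp away. Others lay 192 kb from Ppp1r3b, a glycogen-targeting subunit (1899 bp, 48 CpG, gap 1919 bp), on an exon of a noncoding transcript 30.7 kb from Frmd8 (1667 bp, gap 169 bp), in an intron of the cytoskeletal oxidoreductase Mical3 (1655 bp, gap 231 bp) and in an intron of the matrix protein gene Tnxb (1642 bp, gap 340 bp).

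Within genes the regions had no marked place. The 10% of the gene span next to its start held 11.4% of both early-only and kept regions, and the 10% at its end 8.93% and 8.95%. First introns held 31.2% of intronic early-only regions in genes of at least 3 exons and 34.5% of kept ones.

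Short motifs were counted on both strands as a description of sequence. AGATAA, the letters bound by GATA factors, occurred in 21.5% of early-only and 22.1% of kept regions, and GGAATG, bound by TEAD factors, in 25% and 28.5%. CAGCTG, an E-box, was found in 15.7% against 24.2%, and AGGTGT, bound by T-box factors, in 19.7% against 26.9%. The MEF2 consensus was present in 4.78% and 4.28%. Since kept regions are wider, shares among regions of 300 to 500 bp were also taken. They were 4.88% of early-only and 3.23% of kept regions for MEF2, 22.4% and 19% for AGATAA, 14.2% and 18% for CAGCTG, and 11.3% and 10.4% for TGANTCA, the AP-1 letters. At this width the order turned for AGATAA, for TGANTCA (11.3% and 13.3% at any width) and for GGAATG, which was found in 26.2% of early-only and 24.4% of kept regions, and AGGTGT was found in 19.6% and 21.5%. GC content differed as well (46.8% and 48.5%).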

How the data were processed

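Per the study's methods, the authors mapped hMeDIP reads to mm10 with BWA 0.7.4-r385, filtered duplicates (Picard) and poorly mapped reads, and ran HOMER in histone mode on every sample with input DNA as control. The 8 deposited lists hold positions, and their score is 1 on every line, so the deposited score was not used. The place of a peak in its list, in % of the list, was used for description only. Depth per sample is not given in the lists. Removing poorly mapped reads lowers signal over repeats. Headers of the lists state that scaling against input differed between samples.

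The intersection, merging and exclusion were computed with Python 3.11.15 and numpy 2.4.6 (intervals with scipy 1.17.1) and checked on simulated lists and on the deposited ones with bedtools 2.31.1, which also gave 5252 regions. Samples were grouped by their titles. Classes are those of the centre of a region on 45756 curated RefSeq transcripts of GRCm38 (annotation release 108), and GENCODE M21 was an alternative. Gene spans join transcripts of a gene within 100 kb. Genome sequence was that of RefSeq. No test was run, since members were selected on the readout and regions are not replicates, and 95% intervals cover counting error only (exact Clopper-Pearson for shares, normal approximation for the difference of shares).

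Members, gene lists and measures were chosen with earlier results of these data known. Named genes are the 15 with most early-only regions (ties by share), the 8 densest of at least 20 kb with 3 or more, the 8 nearest to most intergenic regions, genes of the 5 longest runs and 5 widest regions, genes the study names, and list members. Some genes that meet these rules are not reported here. Alternatives left out each list, counted later peaks within 1 kb, required a later peak over 50% of a region, kept regions of at least 200 bp, equalised list sizes, added the X chromosome, excluded by adult lists only, and changed annotation or CpG counting.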

Additional observations from a re-analysis of the deposited data

Results flagged for a closer look

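The X chromosome is outside the autosomal set and stood out there. Of its 367 regions shared by the 4 early lists, 195 (53.1%, exact interval 47.9% to 58.3%) had no adult or TAC peak, against 18.3% on the autosomes, where the highest share on any chromosome was 21.3%. Every later list held fewer peaks off the autosomes altogether than every early list. In E14.5 replicate 1, 130532 of 132610 peaks were autosomal, and in adult replicate 1, 103752 of 104215 were. The cause was not tested.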

How the results depend on the processing

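No paired analysis was possible because the regions come from intersections of lists and no test was made. Leaving out 1 list at a time gave 5841 to 10208 early-only regions, 19.3% to 26.4% of early common regions, an intergenic share of 48.4% to 52.0%, 1.17 to 1.32 CpG per 100 bp, 1931 to 2842 genes, and an early-only nearest neighbour for 26.2% to 31.6%. A rule with 1 list fewer is looser, so the count of regions could hardly fall. Against kept regions the intergenic share then differed by 13.1 to 16.4 points and CpG density by -0.475 to -0.336 per 100 bp. Counting later peaks within 1 kb left 2982 regions (10.4%) in 951 genes, 57.8% intergenic with 1.08 CpG per 100 bp (differences 21.4 and -0.551) and 20.6% neighbours. Requiring a later peak over 50% of a region gave 23.0%, 48.8% intergenic, 1.34 CpG (differences 13.1 and -0.299) and 28.2% neighbours. Excluding by adult lists only gave 8451 regions (29.4%), 49.3% intergenic, 1.26 CpG (difference -0.427) and 35% neighbours. Lists of equal size gave 1747 regions (20%) in 712 genes and 26.2% neighbours, and regions of at least 200 bp 17.8%. Regions of 300 to 500 bp gave 27.0%, 55.5% intergenic, 1.08 CpG (differences 14.1 and -0.365) and 32.1% neighbours. Classes from GENCODE M21 gave 43.8% intergenic, and classes per base a difference of 17.1 points. Unmasked sequence held 1.67 CpG (difference -0.361). With the X chromosome 25.5% had an early-only neighbour, and within 10 kb 18.2% did. Neither the intergenic nor the CpG difference from kept regions changed direction in these settings. The 300 to 500 bp window and all settings for both differences were chosen after seeing the data. Of 36 gene entries, 29 to 36 kept a count within 1.5 times when 1 list was left out. Exceptions include Kalrn with 10 without adult replicate 2, Caln1 with 8 without adult replicate 1, Grip1 with 8 without neonatal replicate 1 or TAC replicate 1, and Rbm20 with 8 without E14.5 replicate 2 or neonatal replicate 1. The cause of these shifts was not tested.

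Peak lists without read counts limit these data. A region just under the calling threshold in a later list cannot be told from one without signal, the number of regions follows the strictness of 8 separate calls, and 2 samples per point leave no estimate of spread for single regions. The lists give no depth, so no detection limit can be given.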
